A study of Mus musculus with 3 samples.

Results

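The 36 genes described here mark dividing cells, and they were followed in leukocytes sorted from 4T1 mammary tumors of mice. The set was a list chosen with earlier results of these data known. It held 14 genes of DNA replication (Mcm2 to Mcm7, Gins2, Pcna, Uhrf1, Tyms, Rrm1, Rrm2, Tk1 and Ccne2), 21 genes of mitosis (Mki67, Top2a, Cdk1, Ccna2, Ccnb1, Ccnb2, Cenpa, Cenpe, Cenpf, Cdc20, Ube2c, Bub1, Bub1b, Plk1, Aurkb, Birc5, Tpx2, Kif11, Kif20a, Nusap1 and Hmmr), and Stmn1. All 36 were among the 32285 genes counted. They were read in 7 classes of cells, each defined by the marker genes its cells held and here called gates, in 12472 cells from 3 libraries.

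All tumors grew from 4T1-luc cells, a BALB/c mammary carcinoma line that carries luciferase, placed at 200000 cells in a mammary fat pad of female BALB/c mice 6 to 8 weeks old. In the vehicle and p38i groups the tumor cells kept p38α, and the mice received DPBS or LY2228820, an inhibitor of p38 kinases, by gavage at 30 mg/kg daily for 10 days from day 4. In the p38KO group the tumor cells were the clone p38a-KO-H9, in which CRISPR-Cas9 had inactivated p38α, and the labels list no treatment. Tumors were taken on day 14, 3 per group were pooled, and live CD45+ cells were sorted into 1 droplet library per group. The inhibitor reached tumor and host alike, whereas the p38KO leukocytes kept their own p38α, and that group rests on 1 clone. With 1 library per group there was no replicate and no test between groups was possible. Each interval given below covers counting error only and treats molecules as independent, although few cells often carried much of a gene's counts.

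A dividing cell first licenses and copies its DNA and then separates the copies. The MCM2-7 helicase and GINS unwind DNA, PCNA clamps the polymerase to it, and ribonucleotide reductase, thymidine kinase and thymidylate synthase supply nucleotides. CDK1 with cyclins A and B then drives entry into mitosis, and the CDC20-activated anaphase-promoting complex, with the E2 enzyme UBE2C, ends it by marking cyclins and securin for destruction. In tumors, activated T cells and NK cells divide, some macrophages divide locally, and mature neutrophils do not.

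The libraries held 4588, 6343 and 5212 barcodes in the vehicle, p38i and p38KO groups, of which 3820, 4793 and 3859 were kept at 1500 or more unique molecular identifiers (UMIs, each 1 captured molecule), 300 or more genes and at most 20% mitochondrial counts. Median depth was 3038 to 3317 UMIs per kept cell. The median mitochondrial share was 0.671%, 0.968% and 2.10%, highest in p38KO, and its part in the results was not tested. Pairs of libraries shared 4 or 5 barcodes. Ptprc, which encodes CD45, was found in 89.2% to 91.0% of kept cells. Mapk14, which encodes p38α, stood at 33.7, 42.1 and 39.1 counts per 1000000 (CPM) in vehicle, p38i and p38KO, and these host cells cannot check a knockout made in tumor cells. The gates took 263, 241 and 129 CD8 T cells, 141, 180 and 174 CD4 T cells, 99, 106 and 104 NK cells, 168, 181 and 548 macrophages, 280, 418 and 249 monocytes, 38, 72 and 53 dendritic cells (DCs) and 1612, 2063 and 1188 neutrophils, in the same order. Macrophages were thus 4.40%, 3.78% and 14.2% of kept cells. The gates were defined to exclude each other, so no cell could meet more than 1, and 31.9% to 36.6% met none. Neutrophil markers were present in every gate, with a summed level of 4126, 6430 and 4332 CPM in the CD8 T gate and 2911, 1651 and 2013 CPM in the macrophage gate. Their part in the results was not tested.

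The promoters of the replication and mitotic members differ in how often they hold E2F and CHR matches, while CCAAT boxes are common in both lists. The sequences below are examples. RefSeq sequence of the GRCm38.p6 build (the C57BL/6J reference, the same coordinates as mm10) was found for 28 of the 36 members, from 250 bases before to 50 after the annotated start. On both strands, the CHR element was searched as TTTGAA or TTTAAA, the CCAAT box as CCAAT, and the E2F site as TTTCCCGC, TTTGGCGC, TTTCGCGC, TTTGCCGC or TTCCCGCC, of which the first and last can overlap. An E2F match lay in 6 of 11 replication promoters (54.5%) and in 1 of 17 mitotic promoters (5.88%), against 4.46% of the promoters of 27025 genes. A CHR and a CCAAT box together lay in 14 of 17 mitotic promoters (82.4%) and 4 of 11 replication promoters (36.4%), against 13.4% of all. The CCAAT box by itself was counted in 15 of 17 mitotic promoters (88.2%) and 9 of 11 replication promoters (81.8%), against 41.1% of all. A match of letters is a description and shows no binding. The 250 bases before the start are printed for 2 replication genes and for 4 mitotic genes whose levels are given below, 5′ to 3′ on the gene's strand, with every match in capitals. Mcm5 (chr8:75109259-75109508, plus strand) and Mcm6 (chr1:128359706-128359955, minus strand) encode helicase subunits and hold E2F matches, some of them overlapping. Both also hold CCAAT matches, and Mcm5 a CHR match. Cdk1 (chr10:69352913-69353162, minus strand), Ccnb2 (chr9:70421555-70421804, minus strand), Cdc20 (chr4:118437344-118437593, minus strand) and Ube2c (chr2:164769679-164769928, plus strand) hold both CHR and CCAAT matches, and Cdk1 also the single E2F match among the mitotic promoters.
Mcm5: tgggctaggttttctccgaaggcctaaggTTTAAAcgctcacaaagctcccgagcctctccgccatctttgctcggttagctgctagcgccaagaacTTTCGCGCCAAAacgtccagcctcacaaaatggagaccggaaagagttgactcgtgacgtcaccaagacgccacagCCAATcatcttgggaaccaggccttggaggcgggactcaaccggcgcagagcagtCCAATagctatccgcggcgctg
Mcm6: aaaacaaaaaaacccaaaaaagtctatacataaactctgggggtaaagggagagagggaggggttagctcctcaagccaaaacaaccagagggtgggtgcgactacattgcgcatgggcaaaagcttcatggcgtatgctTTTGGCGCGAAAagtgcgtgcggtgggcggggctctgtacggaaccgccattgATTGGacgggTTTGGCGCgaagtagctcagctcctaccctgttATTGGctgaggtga
Cdk1: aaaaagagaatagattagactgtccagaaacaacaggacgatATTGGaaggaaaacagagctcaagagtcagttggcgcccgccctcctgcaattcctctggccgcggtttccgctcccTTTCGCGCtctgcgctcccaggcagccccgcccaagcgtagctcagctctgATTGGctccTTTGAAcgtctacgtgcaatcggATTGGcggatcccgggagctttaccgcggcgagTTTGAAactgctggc
Ccnb2: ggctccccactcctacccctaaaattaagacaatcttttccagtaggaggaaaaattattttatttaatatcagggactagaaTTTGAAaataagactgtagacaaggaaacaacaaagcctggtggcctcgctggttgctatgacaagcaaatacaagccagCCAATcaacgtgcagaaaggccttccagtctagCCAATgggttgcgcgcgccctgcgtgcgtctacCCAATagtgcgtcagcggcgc
Cdc20: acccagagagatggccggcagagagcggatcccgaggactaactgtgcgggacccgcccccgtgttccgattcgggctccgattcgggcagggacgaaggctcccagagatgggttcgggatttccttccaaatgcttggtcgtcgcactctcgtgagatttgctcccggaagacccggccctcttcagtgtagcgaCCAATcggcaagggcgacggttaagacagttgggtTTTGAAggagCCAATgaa
Ube2c: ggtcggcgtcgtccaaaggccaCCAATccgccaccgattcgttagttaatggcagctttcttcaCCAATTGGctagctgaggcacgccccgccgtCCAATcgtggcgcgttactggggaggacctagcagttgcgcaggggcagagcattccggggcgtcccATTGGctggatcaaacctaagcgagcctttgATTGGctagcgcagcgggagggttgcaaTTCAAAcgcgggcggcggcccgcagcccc

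Of the 7 gates, macrophages and CD8 T cells had the highest shares of cells that held several members. Each cell was thinned at random to 1500 UMIs, so that deep cells had no advantage, and was counted when 3 or more of the 36 members were detected. In the macrophage gate these were 39 of 168 vehicle cells (23.2%, exact 95% interval 17.1% to 30.3%), 21 of 181 p38i cells (11.6%, 7.33% to 17.2%) and 99 of 548 p38KO cells (18.1%, 14.9% to 21.5%). In the CD8 T gate they were 28 of 263 (10.6%, 7.19% to 15%), 36 of 241 (14.9%, 10.7% to 20.1%) and 16 of 129 (12.4%, 7.26% to 19.4%). In both gates the intervals of the libraries overlapped, those of vehicle and p38i macrophages only just. At full depth the shares were 62.5%, 50.8% and 62.6% of macrophages and 40.3%, 36.1% and 42.6% of CD8 T cells, in which deeper cells count more often.

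The other gates were lower. In vehicle, p38i and p38KO, the shares were 6.38%, 5.56% and 5.75% of CD4 T cells, 4.04%, 5.66% and 7.69% of NK cells, and 2.63%, 6.94% and 7.55% of DCs, the last from 1, 5 and 4 cells. Monocytes had 1, 2 and 1 such cells (0.357%, 0.478% and 0.402%). The neutrophil gate, which serves as the background, had 0, 0 and 1. A count of 0 of 1612 vehicle and 0 of 2063 p38i neutrophils allows shares of up to 0.186% and 0.145% (3 cells of the total), with exact intervals up to 0.229% and 0.179%, and the monocyte intervals reached down to that level. Median depth before thinning was 2097 to 2428.5 UMIs in neutrophils, 8450 to 9232 in monocytes, 5472 to 6187 in CD8 T cells and 13242 to 17401 in macrophages. At full depth the shares were 26.2%, 17.2% and 30.5% in CD4 T cells, 26.3%, 29.2% and 33.7% in NK cells, 21.1%, 31.9% and 49.1% in DCs, 16.4%, 12.7% and 14.5% in monocytes, and 0.558%, 0.339% and 0.505% in neutrophils. A second random draw gave 32, 20 and 106 macrophages, 26, 40 and 16 CD8 T cells, 9, 8 and 8 CD4 T cells, 8, 7 and 10 NK cells, and 2, 2 and 1 DCs, so differences of a few cells between libraries lie within what the draw itself moves. The order of the DC shares, the sign of the NK difference between p38i and vehicle and the sign of the macrophage difference between p38KO and vehicle changed with the draw.

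**Figure D1:**
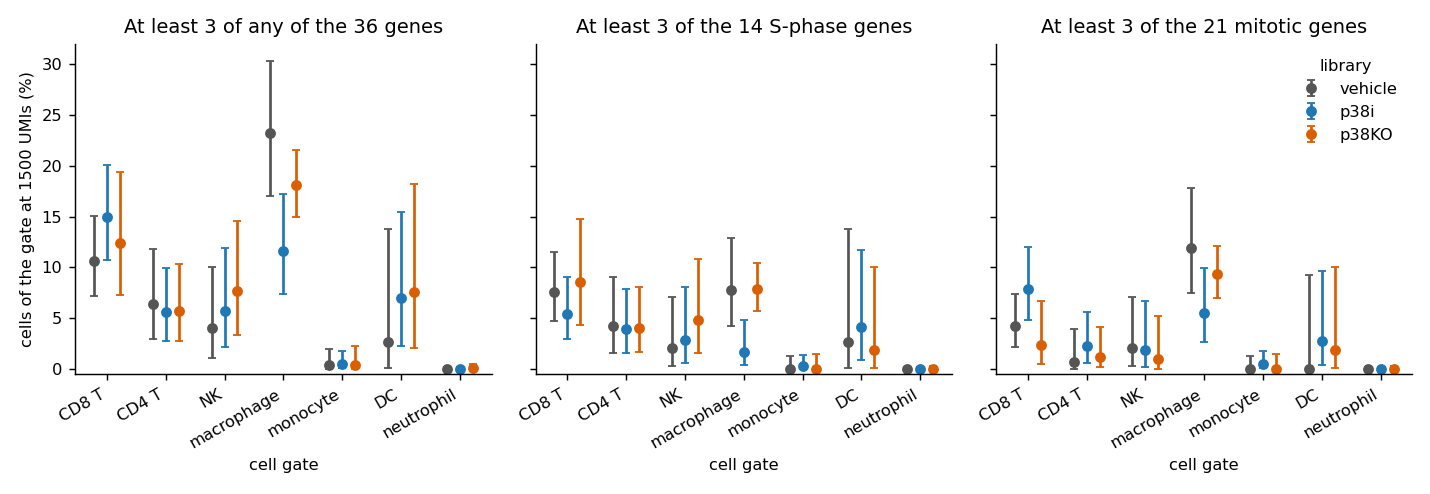
Percentage of cells (vertical axis) in each gate and library with 3 or more of all 36 members, of the 14 replication genes or of the 21 mitotic genes (3 panels), after thinning to 1500 UMIs; points are single libraries and bars are exact 95% binomial intervals. Macrophages (23.2%, 11.6% and 18.1% for all 36) and CD8 T cells (10.6%, 14.9% and 12.4%) stand highest, and neutrophils and monocytes lie near 0.

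Over all kept cells the share was 2.96% in vehicle (113 cells, 2.44% to 3.55%), 2.40% in p38i (115 cells, 1.98% to 2.87%) and 4.92% in p38KO (190 cells, 4.26% to 5.65%). The p38KO interval did not overlap the others. Macrophages made up 52.1% of these cells in p38KO, 34.5% in vehicle and 18.3% in p38i, CD8 T cells made up 8.42%, 24.8% and 31.3%, and cells outside all gates 26.8%, 27.4% and 30.4%. The p38KO macrophage gate was also the largest of the 3, while the share of its cells with 3 or more members was 18.1%, against 23.2% in vehicle. The intervals of these 2 shares overlapped, and the sign of their difference changed with the second draw.

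With the replication genes alone, 13 vehicle macrophages (7.74%, 4.18% to 12.9%), 3 p38i macrophages (1.66%, 0.343% to 4.77%) and 43 p38KO macrophages (7.85%, 5.74% to 10.4%) held 3 or more, and the p38i and p38KO intervals did not overlap. The p38i value rests on 3 cells of 1 random draw. At full depth the p38i and p38KO shares were 34.8% (27.9% to 42.2%) and 42.5% (38.3% to 46.8%), with overlapping intervals. With the mitotic genes alone the counts were 20 (11.9%), 10 (5.52%) and 51 (9.31%). In the CD8 T gate 11 vehicle cells (4.18%, 2.11% to 7.36%), 19 p38i cells (7.88%, 4.81% to 12.0%) and 3 p38KO cells (2.33%, 0.482% to 6.65%) held 3 or more mitotic genes, with overlapping intervals. Most cells with 3 or more members held genes of both lists: 22 of 28, 28 of 36 and 10 of 16 CD8 T cells, and 26 of 39, 18 of 21 and 65 of 99 macrophages.

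**Figure D2:**
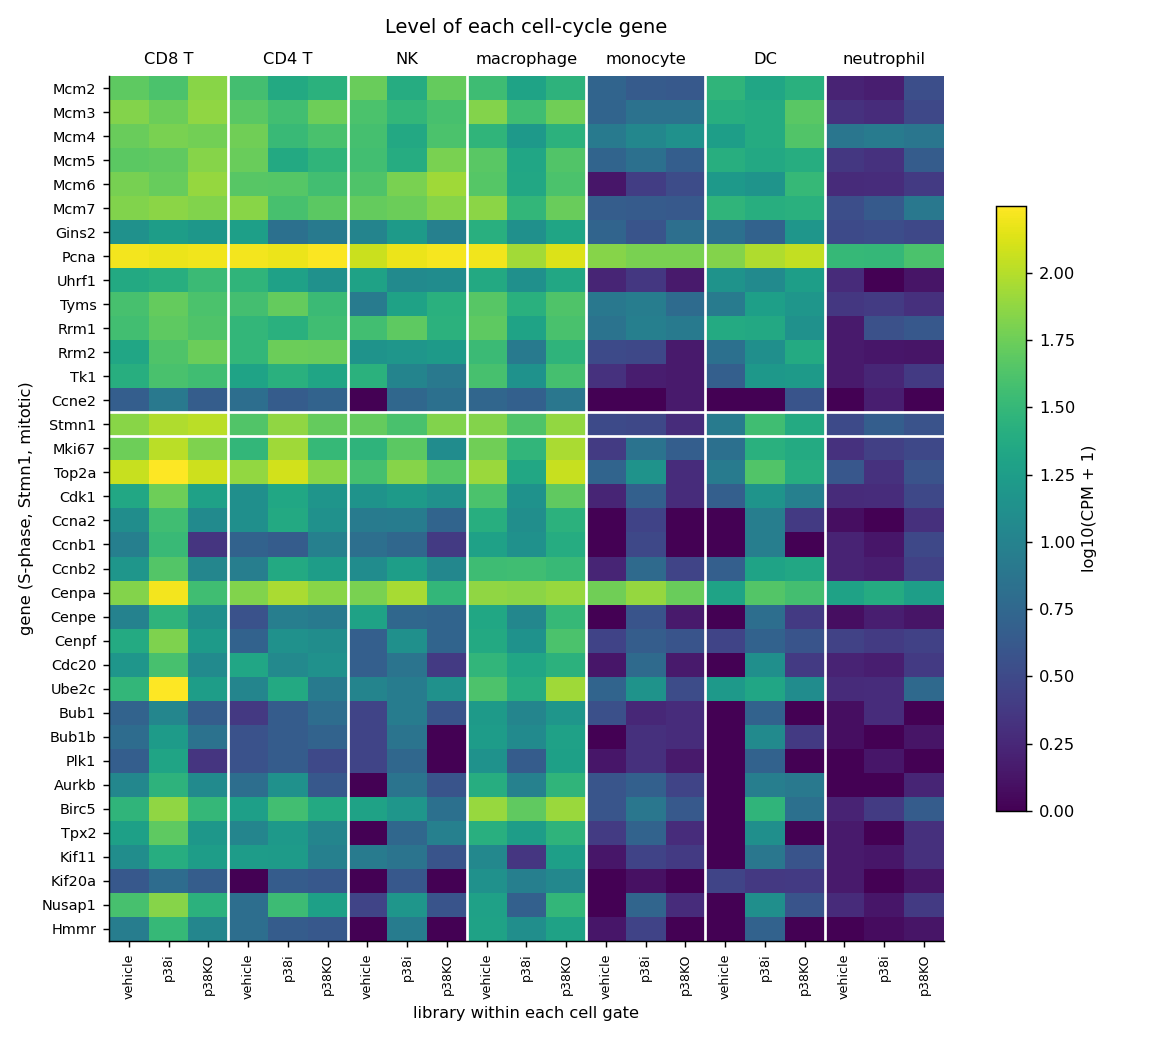
Level of each of the 36 members (rows) in each gate and library (columns), as the log10 of CPM + 1 of the summed counts. Rows are to be read across, within a gene; Pcna and Cenpa hold counts in every gate, while Mki67 and Top2a stand lower in neutrophils and monocytes than in CD8 T cells.

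The levels of single genes were read from the counts summed over a gate, as CPM, and compared only within a gene. A member was called different from vehicle when its log2 ratio was at least 0.5 in size, its 95% interval excluded 0 and at least 20 counts stood behind it. Both p38 groups were compared with the same vehicle library. Members differed in how closely they kept to the dividing gates. Pcna stood at 159, 151 and 159 CPM in CD8 T cells and 158, 84.6 and 134 CPM in macrophages, but also at 68.4, 62.1 and 61.6 CPM in monocytes and 30.8, 30.6 and 40.0 CPM in neutrophils. Cenpa, the centromeric histone H3 variant, behaved alike, with 56.8, 77.7 and 52.8 CPM in monocytes and 18.6, 23.0 and 17.1 CPM in neutrophils. Mki67, which encodes the proliferation antigen Ki-67, stood at 1.45, 6.24 and 3.73 CPM in monocytes and 1.11, 1.66 and 2.09 CPM in neutrophils, against 55.9, 103 and 64.4 CPM in CD8 T cells. Summed over the 21 mitotic genes, neutrophils held 32.2, 34.8 and 46.0 CPM.

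**Figure D3:**
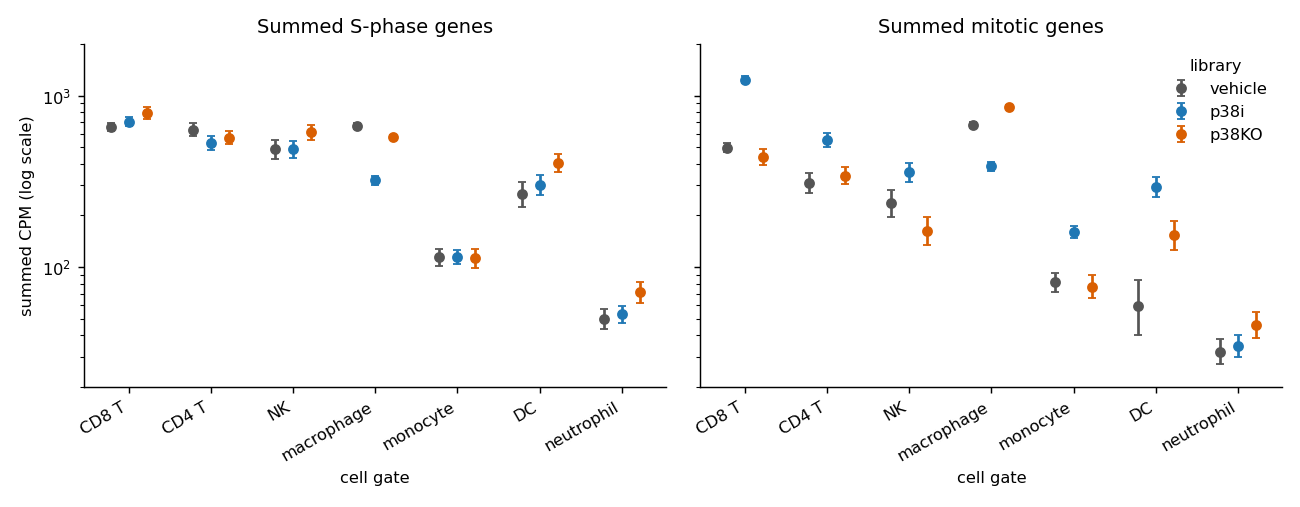
Summed CPM (log axis) of the 14 replication genes and the 21 mitotic genes in each gate and library; bars are 95% Poisson intervals of the summed counts. The p38i CD8 T point for mitotic genes (1237 CPM) stands above vehicle (497 CPM), and both p38i macrophage points (320 and 387 CPM) stand below vehicle (665 and 676 CPM).

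In p38i macrophages the members stood below vehicle almost throughout. All 36 had enough counts, and 30 were called lower and 0 higher, against 8.2% of all genes called in either direction in that comparison. The replication genes summed to 665 CPM in vehicle (637 to 693), 320 CPM in p38i (300 to 340) and 575 CPM in p38KO (559 to 591), a log2 ratio of -1.06 for p38i (-1.16 to -0.95). The mitotic genes summed to 676, 387 and 860 CPM, a log2 ratio of -0.80 for p38i (-0.91 to -0.70). The median log2 ratio was -0.96 over the 14 replication genes and -0.74 over the 21 mitotic genes, against -0.02 over all genes.

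Among the genes of nucleotide supply, Rrm2, the S-phase subunit of ribonucleotide reductase, stood at 33.3, 7.37 and 28.2 CPM in vehicle, p38i and p38KO macrophages, and its p38i ratio was -2.18. Its partner subunit Rrm1 stood at 48.2, 19.2 and 39.3 CPM (-1.33), thymidine kinase Tk1 at 37.9, 13.1 and 37.6 CPM (-1.53), and thymidylate synthase Tyms at 45.2, 25.6 and 41.3 CPM (-0.82). In all 4 the p38i library was the low one. The helicase subunits Mcm2 to Mcm7 were each called lower in p38i, with ratios from -1.24 (Mcm7, at 70.6, 29.8 and 53.5 CPM) to -0.83 (Mcm2), and Mcm5 stood at 45.8, 20.2 and 42.3 CPM. Gins2, a subunit of the GINS complex, had a ratio of -1.01, the clamp gene Pcna -0.90 and Uhrf1, which guides maintenance of DNA methylation, -0.82. Ccne2, an S-phase cyclin with 12 counts in p38i and 15 in vehicle, was the replication gene not called.

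The mitotic genes were less uniform, with 16 of 21 called lower in p38i. Top2a, the topoisomerase that untangles sister chromatids, stood at 80.6, 21.5 and 114 CPM (-1.91). Kif11, the kinesin that pushes spindle poles apart, had 34 counts in vehicle and 4 in p38i, which is 10.3 and 1.28 CPM, with 17.4 CPM in p38KO (-3.01, interval -4.96 to -1.52). Nusap1, a spindle-associated protein, stood at 18.2, 3.85 and 29.7 CPM (-2.24). The spread among mitotic genes was thus wide, since Cenpa (74.0, 70.5 and 77.9 CPM) and Ccnb2, a B-type cyclin (34.3, 35.6 and 31.5 CPM), had ratios of -0.07 and 0.05.

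The mitotic kinases gave ratios of -1.60 for Cdk1 (39.7, 13.1 and 49.4 CPM), -1.89 for Plk1 (13, 3.53 and 18.0 CPM) and -1.47 for Aurkb (23.9, 8.65 and 28.9 CPM). Ccnb1, Bub1b and Kif20a had ratios of -0.53, -0.59 and -0.61 with intervals that included 0. Cdc20 (-0.52), Bub1 (-0.71), Tpx2 (-0.58) and Hmmr (-0.66) were called with intervals that came close to 0. Stmn1, which encodes the microtubule-destabilizing protein stathmin, stood at 66.7, 42.0 and 76.1 CPM (-0.67).

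In p38KO macrophages 7 of 36 members were called higher and 0 lower. Of 10883 genes in all, 13.4% were called in either direction, with 1082 higher and 375 lower. Counted in either direction, the 36 members together were not far from this background. All 7 called members were mitotic, from the list of 21. They were Ube2c (40.6 CPM in vehicle, 82.9 CPM in p38KO, ratio 1.03), Cenpf (22.1 and 40.1 CPM, 0.86), Kif11 (0.76), Nusap1 (0.71), Mki67 (57.0 and 91.6 CPM, 0.68), Cenpe (0.56) and Top2a (0.50). Cenpe and Cenpf encode kinetochore proteins. None of the 14 replication genes was called, and their median ratio was -0.19, against 0.07 over all genes. The summed mitotic ratio was 0.35 (0.28 to 0.42), under the size limit of 0.5.

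The macrophage values rest in part on the deepest cells. Above each library's 99th percentile of UMIs (31064, 25634 and 36819 UMIs) lay 39, 48 and 39 cells, of which 33, 28 and 31 were macrophages. The gate held 168, 181 and 548 cells, so leaving them out takes a larger part of vehicle and p38i than of p38KO. These deep macrophages held 1437 of 2229 mitotic counts of the vehicle macrophages (64.5%), 446 of 1207 in p38i (37.0%) and 2930 of 7451 in p38KO (39.3%). Without them the p38i ratio was -0.68 for replication genes, still called, but -0.25 for mitotic genes, not called, and 11 members were called lower. The p38KO ratios became 0.62 for mitotic genes, past the size limit, and 0.25 for replication genes, with 13 members called higher. No doublet caller was run on these cells, and their part in the result was tested no further.

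**Figure D4:**
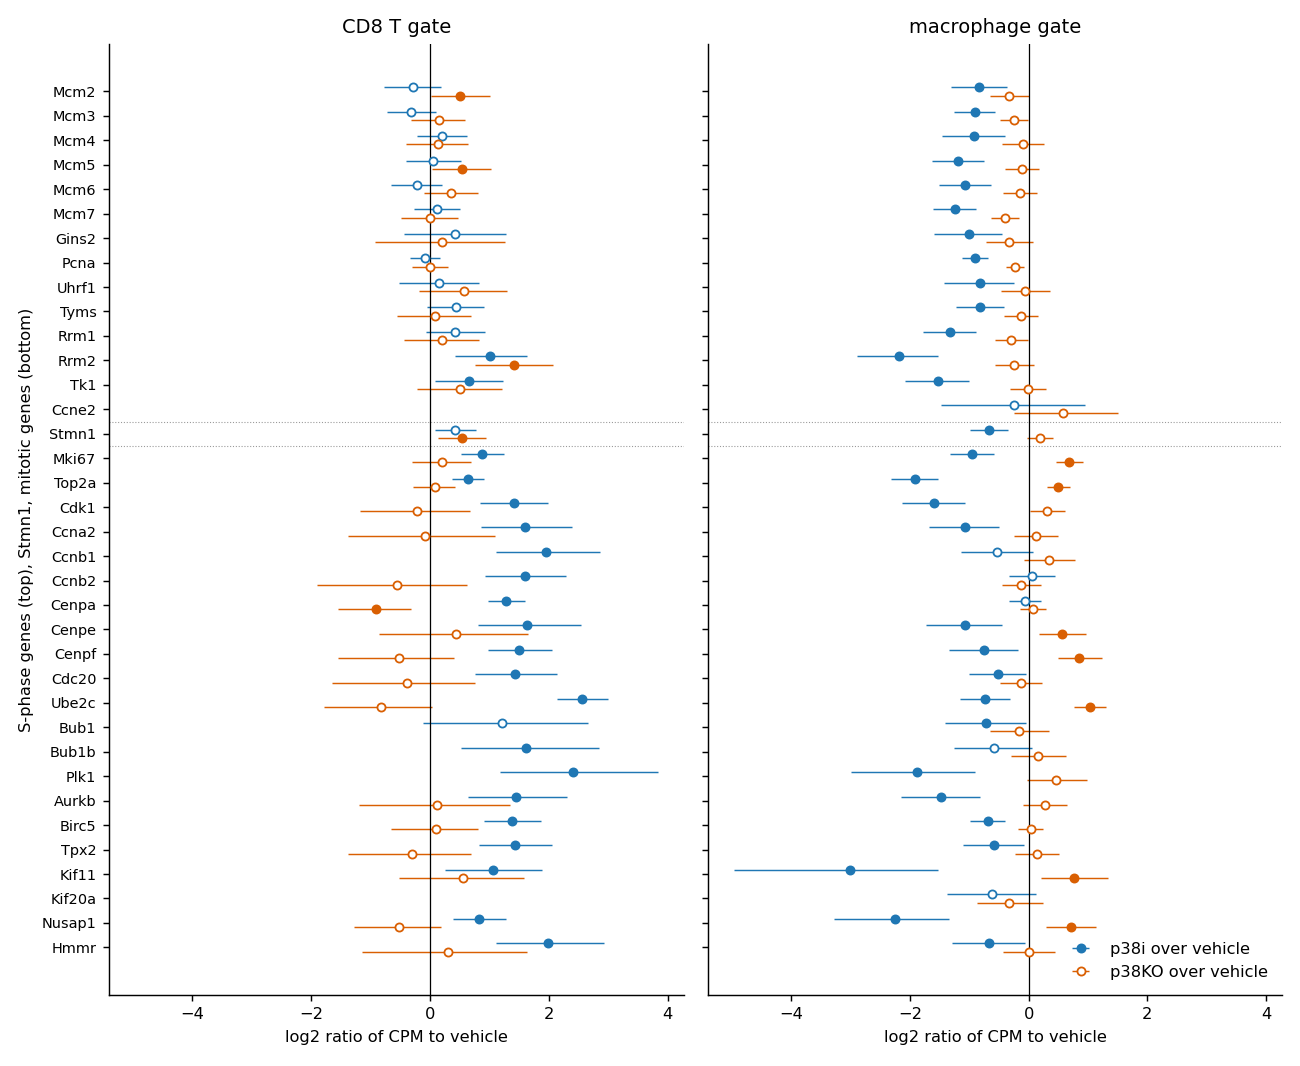
Log2 ratio to vehicle of the summed CPM of each member in the CD8 T gate and the macrophage gate, for p38i and p38KO; bars are 95% intervals, filled points are called, and members with under 20 counts are not drawn. In p38i the mitotic genes lie above 0 in CD8 T cells (19 of 20 called) and mostly below 0 in macrophages (16 of 21 called).

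In p38i CD8 T cells the mitotic genes stood above vehicle, and nearly all were called, while most replication genes were not called. The mitotic sum was 497 CPM in vehicle (466 to 530), 1237 CPM in p38i and 438 CPM in p38KO (394 to 486), a p38i ratio of 1.32 (1.20 to 1.43). The replication sum was 659, 706 and 794 CPM, a p38i ratio of 0.10. Of the 34 members with enough counts, 21 were called higher and 0 lower, against 7.96% of all genes called. These were 19 of 20 mitotic genes, with a median ratio of 1.44, and 2 of 13 replication genes, Rrm2 (1.02) and Tk1 (0.65). The median over all genes was 0.07.

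Among the genes of mitotic exit, Ube2c stood at 30.1, 176 and 17.0 CPM in vehicle, p38i and p38KO, and its p38i ratio of 2.55 (2.13 to 2.99) was the highest of the members. Cdc20 stood at 14.2, 38.4 and 10.9 CPM (1.43). Of the cyclins, Ccnb1 stood at 8.44, 32.5 and 1.21 CPM (1.95), Ccnb2 at 14.2, 42.9 and 9.72 CPM (1.59) and Ccna2 at 11.6, 35.1 and 10.9 CPM (1.60). The p38i library was the high one for each, and vehicle and p38KO lay close together for Cdc20 and Ccna2.

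Cdk1, the kinase these cyclins bind, stood at 21.1, 55.9 and 18.2 CPM (1.41), Plk1 at 3.69, 19.5 and 1.21 CPM (2.40, from 7, 30 and 1 counts), and Aurkb had a ratio of 1.45. Hmmr, which encodes a spindle-associated hyaluronan receptor, stood at 7.91, 31.2 and 9.72 CPM (1.98). Birc5, which encodes survivin, a partner of Aurora B, stood at 28.5, 74.1 and 30.4 CPM (1.38), and Tpx2, an activator of Aurora A, had a ratio of 1.42. The centromere genes Cenpa (66.4, 162 and 35.2 CPM), Cenpe (8.96, 28.0 and 12.1 CPM) and Cenpf (22.7, 64.4 and 15.8 CPM) had ratios of 1.28, 1.64 and 1.51. Smaller ratios were those of Mki67 (0.88), Nusap1 (0.83) and Top2a (113, 176 and 119 CPM, 0.64). The checkpoint gene Bub1 had a ratio of 1.21 with an interval from -0.12 to 2.65 and was not called, and Kif20a, like the replication gene Ccne2, had too few counts.

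The replication genes of p38i CD8 T cells lay on both sides of vehicle, 9 above and 4 below of 13, with a median ratio of 0.16. Mcm3 stood at 67.0, 54.0 and 74.1 CPM, Mcm2 had a ratio of -0.29, Mcm4 of 0.20 and Pcna of -0.08, none of them called. Tyms (0.44), Rrm1 (0.42) and Gins2 (0.42) were not called either. Mitotic counts per replication count were 0.755 in vehicle, 1.75 in p38i and 0.552 in p38KO CD8 T cells. In CD4 T cells this quotient was 0.489, 1.04 and 0.602, in NK cells 0.484, 0.733 and 0.267, and in neutrophils 0.647, 0.656 and 0.644. Macrophages had 1.02, 1.21 and 1.5.

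In p38KO CD8 T cells 4 of 30 members were called higher and 1 lower, against 11.6% of all genes called, again not far from the background. Rrm2 stood at 20.6 CPM in vehicle and 54.7 CPM in p38KO (1.41), Mcm5 at 46.9 and 68.0 CPM (0.54), Mcm2 at 48.5 and 69.2 CPM (0.51) and Stmn1 at 70.1 and 102 CPM (0.54), while Cenpa was lower (-0.92). The intervals of Mcm2 and Mcm5 began just above 0, at 0.01 and 0.03. Without the cell with the most member counts in each library, 1 member was higher and 1 lower. The mitotic sum had a ratio of -0.18, with an interval that ended just below 0.

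A handful of cells carried much of the mitotic signal of the lymphocyte gates. At least 50% of the mitotic counts lay in 5 of 263 vehicle, 5 of 241 p38i and 3 of 129 p38KO CD8 T cells, in 3 CD4 T cells of each library and in 3, 2 and 5 NK cells. In macrophages it took 8, 9 and 19 cells. One CD8 T cell held 24.3%, 18.3% and 21.9% of its gate's mitotic counts in the 3 libraries. Without the CD8 T cell with the most member counts, and under every other setting tried, the p38i mitotic ratio stayed between 1.00 and 1.44.

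**Figure D5:**
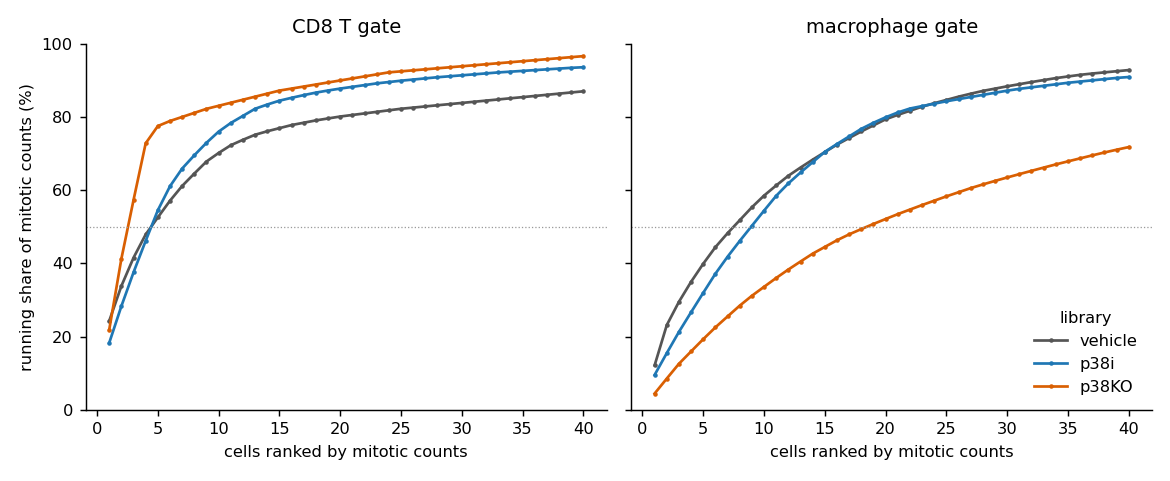
Running percentage of a gate's mitotic counts (vertical axis) over its 40 cells with the most mitotic counts, ranked from highest to lowest (horizontal axis), for each library; the dotted line marks 50%. In the CD8 T gate the line was reached within 5, 5 and 3 cells, and in macrophages within 8, 9 and 19.

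In CD4 T cells the p38i library gave 7 members higher and 3 lower of 25 with enough counts, against 10.2% of all genes called. Nusap1 stood at 5.44, 33.6 and 18.0 CPM in vehicle, p38i and p38KO (4, 29 and 17 counts), with a p38i ratio of 2.63. Mki67 stood at 29.9, 83.4 and 30.8 CPM (1.48), Ccnb2 at 8.16, 22.0 and 17.0 CPM (1.43) and Top2a at 74.8, 124 and 70.1 CPM (0.73), and Birc5 (1.02), Rrm2 (0.86) and Stmn1 (0.81) were also higher. The lower members were helicase subunits: Mcm5 (53.0, 22.0 and 28.7 CPM, -1.27), Mcm7 (-0.86) and Mcm4 (-0.82). The mitotic sum had a p38i ratio of 0.83 (0.60 to 1.06). Without the 1 p38i cell above the 99th percentile of UMIs it was 0.59, with 3 members higher and 6 lower and a replication ratio of -0.70. With strict gates, which for this gate required 2 counts of Cd4, the mitotic ratio was 0.37, not called. The summed level of neutrophil markers in this gate was 1650, 7338 and 2720 CPM, highest in p38i, and its part was not tested. In p38KO, 2 of 24 members were higher (Nusap1 1.73 and Rrm2 0.83) and 2 lower (Uhrf1 -1.16 and Mcm5 -0.89), against 11% of all genes. These counts are small, and without the cell with the most member counts in each library 1 was higher and 1 lower.

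NK cells had few counts, with 13 members testable by counts in each comparison. In p38i Top2a was higher (37.7 and 68.8 CPM, 0.87) and Mcm2 (-1.17) and Tk1 (-1.49) lower, against 10.5% of all genes called. In p38KO Mcm6 (41.4 and 84.2 CPM, 1.02) and Tyms (4 and 18 counts, 1.77) were higher and Cenpa (-1.05) lower, against 13.4% of all genes called. The mitotic sum was 235, 357 and 163 CPM, with ratios of 0.60 (0.28 to 0.93) for p38i and -0.53 (-0.91 to -0.15) for p38KO. One cell held 42.1% of the mitotic counts of p38i NK cells, and without the cell with the most member counts in each library the ratios were 0.23 and -0.39, neither called. The p38KO NK gate also held mast cell or basophil markers (5 of 5 detected, 1399 CPM, against 1.88 and 17.2 CPM). Without the 12 cells that held them the ratios were 0.62 and -0.55.

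Monocytes, DCs and neutrophils gave small counts. In p38i monocytes 6 of 18 members were called higher, all mitotic, against 7.4% of all genes: Cdc20 (1 count in vehicle, 19 in p38i), Ccnb2 (2 and 19), Mki67 (4 and 24), Top2a (12 and 51), Ube2c (12 and 51) and Birc5 (8 and 26). One cell held 234 of the 618 mitotic counts of that gate (37.9%), and with the cell with the most member counts left out of each library 0 members were called. In p38KO monocytes 0 of 8 members were called, against 8.71% of all genes.

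In p38i DCs 5 of 13 members were called higher, against 9.75% of all genes: Top2a (4 and 31 counts), Stmn1 (4 and 26), Mki67 (3 and 19), Cenpa (10 and 32) and Birc5, which had 0 counts in vehicle and 21 in p38i. One cell held 44.7% of the mitotic counts there, and 2 members were called without the cell with the most member counts in each library. In p38KO DCs Mcm4 (1.32), Pcna (0.72) and Top2a (1.67) were called higher of 11 members, against 10.8% of all genes. The p38KO DC sums had ratios of 0.61 (0.31 to 0.91) for replication genes and 1.38 (0.79 to 2.01) for mitotic genes. There 1 cell held 36.3% of the replication counts and 1 cell 30.6% of the mitotic counts, and fewer members were called under strict gates. In neutrophils Top2a was lower in p38i (14 and 6 counts, 1 of 7 members, 12.4% of all genes called) and Mcm7 higher in p38KO (11 and 20 counts, 1 of 5 members, 12.4% of all genes called). By the number of members called, a single call among so few sets neither comparison apart from all genes. The sums of p38KO neutrophils were called higher, at 0.52 (0.24 to 0.80) for replication genes and 0.51 (0.16 to 0.86) for mitotic genes. Both lay just past the size limit of 0.5, and under it with median-ratio scaling.

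Other genes of the cell cycle, from lists that do not overlap the members, were read in the CD8 T and macrophage gates. They were counted in the same cells as the members, so they are not an independent result. In p38i CD8 T cells 18 of 32 further mitotic genes were called higher and 1 lower, with a median ratio of 1.10, against 7.96% of all genes called. Examples were Aurka, which encodes Aurora A (3.69 and 11.7 CPM, 1.66), Prc1, a midzone protein (21.1 and 50.1 CPM, 1.25), Cks2, a CDK-binding subunit (51.1 and 114 CPM, 1.15), and Pttg1, which encodes securin (34.8 and 77.4 CPM, 1.15). Of 20 further replication genes 1 was higher, and of 8 chromatin and tubulin genes 4 were, among them Tuba1b (246 and 398 CPM, 0.69) and Hmgb2 (676 and 984 CPM, 0.54).

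Among 8 brakes of the cycle in that library 3 were called lower and 5 were not called, with a median ratio of -0.17. The lower ones were Klf2, a quiescence factor of T cells (332 and 179 CPM, -0.89), Btg2 (252 and 144 CPM, -0.80) and Btg1 (1794 and 1200 CPM, -0.58), which are antiproliferative genes. Myc, a driver of cell cycle entry, was lower (-0.53), the 1 call among 6 entry genes, and 1 of 7 transcription factors of the cycle was higher. In p38KO CD8 T cells 2 of 25 further mitotic and 3 of 18 further replication genes were higher, against 11.6% of all genes called, and the CDK inhibitor gene Cdkn1a was lower (60.6 and 18.2 CPM, -1.73).

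In p38i macrophages 22 of 33 further mitotic genes and 15 of 22 further replication genes were lower and 0 higher, with median ratios of -0.88 and -0.81, against 8.2% of all genes called. The further lists were not recounted without the cells above the 99th percentile of UMIs. In vehicle macrophages those cells held 64.5% of the counts of the mitotic members. Prc1 stood at 17.9 CPM in vehicle and 2.56 CPM in p38i (-2.80). Of 8 transcription factors of the cycle 4 were lower, among them E2f8 (10.9 and 3.53 CPM, -1.63) and Mybl2 (6.67 and 2.88 CPM, -1.21), while E2f1 was not called (-0.25). The D-type cyclins were not called either, at -0.28 to 0.26 for Ccnd1, Ccnd2 and Ccnd3 over both comparisons. Of 8 brakes 4 were lower and 1 higher. Btg2 (141 and 54.8 CPM, -1.37) and Cdkn1a (195 and 138 CPM, -0.50) were lower and Klf2 higher (60.0 and 111 CPM, 0.89). In p38KO macrophages 10 of 36 further mitotic genes were higher and 0 lower, against 13.4% of all genes called, among them Prc1 (0.79), Aurka (0.75) and Pttg1 (0.53), while the replication list had 1 higher and 1 lower of 22. In CD4 T cells of p38i 3 of 16 further mitotic genes were higher and 0 lower, against 10.2% of all genes called.

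Cells with 3 or more members were then set beside cells of the same gate and library with none, as a description. They were deeper even so, at a median of 9148 against 6136, 9150.5 against 5221 and 8439.5 against 5382 UMIs in CD8 T cells, and 24528 against 14777.5, 22868 against 16169 and 16327 against 13240 UMIs in macrophages. In CD8 T cells Il7r, the receptor for a survival cytokine of resting and memory T cells, was lower in all 3 libraries: 213 against 340 CPM in vehicle, 201 against 380 in p38i and 122 against 252 in p38KO.

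Effector and checkpoint genes did not keep 1 direction over the libraries. Perforin (Prf1) was higher in the cells with members in vehicle (694 against 363 CPM) and p38i (485 against 296 CPM), and not called in p38KO (6 against 30 counts). Ifng, which encodes interferon gamma, was higher in vehicle (534 against 112 CPM, ratio 2.25) and p38i (333 against 190 CPM, 0.81), and lower in p38KO (8 against 39 counts, -1.16). Gzmb was called higher in p38KO alone (556 against 173 CPM, 1.68), and the difference between libraries was not tested. Pdcd1, which encodes PD-1, was higher in p38i (361 against 249 CPM) and lower in p38KO (14 against 57 counts), and Lag3 was called in none of the 3. The p38KO values rest on 16 cells with members.

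In macrophages with 3 or more members Apoe, Cd74 and H2-Ab1 were called lower in all 3 libraries, which held for no other listed macrophage gene. Ccr2, Csf1r, Trem2, Arg1, Ly6c2 and Nos2 also had ratios below 0 in all 3, but were not called in each. Apoe, an apolipoprotein of tissue macrophages, stood at 5701 against 13065, 5944 against 17709 and 13658 against 25384 CPM. Cd74, the invariant chain, and H2-Ab1, a class II chain, were lower too, with ratios of -0.95, -1.24 and -0.63 for Cd74 and -1.02, -1.36 and -0.62 for H2-Ab1. Ly6c2, a monocyte gene, had 1 against 138 counts in vehicle and 6 against 370 in p38KO, and was not called in p38i (7 against 42). Arg1, arginase 1, was lower in vehicle (423 against 1648 CPM) and p38KO (316 against 997 CPM) and not called in p38i, and Spp1, osteopontin, was lower in vehicle and p38KO but higher in p38i (2523 against 1431 CPM). Opposite directions in Spp1 were not tested. Cx3cr1 was higher in vehicle (701 against 415 CPM) and not called in p38i or p38KO. Mrc1 and Csf1r were lower in p38i and not called in vehicle or p38KO. Ccr2 was lower in vehicle and p38i, Nos2 in vehicle and p38KO and Trem2 in vehicle, each not called elsewhere.

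A ranking with the members and the further cell cycle lists left out held 1330 genes with enough counts in CD8 T cells and 4505 in macrophages. Among the genes ranked, the 5 highest by their smallest ratio over the 3 libraries were Pclaf, Dnmt1, Tmpo, Selenoh and Ube2s in CD8 T cells. In macrophages they were Pclaf, Nasp, Selenoh, Tmpo and Ccdc34. Hmgb2, from the lists left out, had ratios of 2.53, 2.99 and 2.52 in CD8 T cells and 2.64, 2.86 and 3.04 in macrophages. Pclaf, which encodes a PCNA-binding factor, stood at 426 against 3.03, 513 against 1.46 and 599 against 11.2 CPM in CD8 T cells and 385 against 3.18, 264 against 11.6 and 392 against 7.95 CPM in macrophages. Dnmt1, the maintenance DNA methyltransferase, had ratios of 2.55, 2.15 and 2.53 in CD8 T cells, and Nasp, a histone chaperone, 2.72, 2.12 and 2.28 in macrophages. The 5 lowest were Cstdc4, Cxcl2, Cd9, G0s2 and Il1b in CD8 T cells and Cxcl3, Ccl5, Tnfrsf9, Mmp9 and Mgst1 in macrophages. Beside them, the summed neutrophil markers stood at 318 against 5058, 1265 against 11336 and 6950 against 6645 CPM in CD8 T cells, and 1464 against 5313, 1135 against 2156 and 715 against 2334 CPM in macrophages, and their part in the low genes was not tested.

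Cells outside all gates held 31, 35 and 51 of the cells with 3 or more members (2.54%, 2.28% and 3.61% of ungated cells). Markers of several classes were present in them at 2 or more counts. They were deeper than ungated cells with 0 members, at a median of 13654, 8267 and 9482 against 3109, 3484 and 2779 UMIs. T cell markers were present in 23 of 31 vehicle, 27 of 35 p38i and 25 of 51 p38KO cells, and NK markers in 17, 20 and 15. Neutrophil markers were present in 24, 23 and 28, and monocyte markers in 22, 21 and 29. In p38KO 30 of 51 likewise held macrophage markers, against 14 of 31 in vehicle and 7 of 35 in p38i. Mast cell or basophil markers were held by 0 vehicle, 0 p38i and 8 p38KO cells. Tumor epithelium markers were held by 3, 0 and 4 cells in the same order, at a summed 14.7, 11.8 and 675 CPM.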

How the data were processed

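Cells were live CD45+ leukocytes from 3 pooled tumors per group. Per the file headers, the authors deposited UMI counts per gene and barcode from Cell Ranger 6.0.0, and the labels' processing notes add mm10, R 4.2.1 and Seurat 5. The counts were not normalized, and the study's methods name Cell Ranger's filtered matrix, which holds called cells only. Barcodes under 1500 UMIs or 300 genes, or over 20% mitochondrial, were dropped here, the limits stated in the study's methods. Gates were set by counts of marker genes: Cd3d, Cd3e or Cd3g with Cd8a (CD8 T) or Cd4 (CD4 T), Ncr1 (NK), 3 or more counts of C1qa (macrophage), Ly6c2 with Fn1 (monocyte), Flt3 (DC), and Csf3r or Cxcr2 (neutrophil), with 1 count enough except for C1qa. Strict gates, tried as an alternative, required 2 counts of each gate gene other than Cd3d, Cd3e and Cd3g, and 4 of C1qa. Main and strict gates alike also required some marker genes of other gates to be absent, except that monocytes could hold C1qa under 3 counts. Marker RNA free in the droplets can place a cell in a wrong gate or keep it out of one, and a gate compares the cells that met it, not a cell type as such. No clustering and no doublet caller were run.

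Each cell was thinned to 1500 UMIs (seed 1) to count detected members, with exact Clopper-Pearson 95% intervals. Counts summed per gate were scaled to 1000000 (CPM), with exact Poisson intervals. Ratios to vehicle have exact binomial intervals conditional on the 2 counts, and 0.5 stands in for a count of 0. Scripts were tested on simulated data. Duplicate PCR reads are already collapsed in UMIs, and intervals and floors cover counting error only. The 36 members, the gene lists and the gates were chosen with earlier results of these data known. Named genes were the members, those of further lists given as examples, and the 5 genes with the highest and lowest smallest ratio between cells with 3 or more members and cells with none. That ranking left out the members and the genes of the further lists. It first required 30 cells with members in each library, which no gate met. The limit was lowered to 15 cells after the data were seen, with at least 50 counts per gene. Python 3.11.15, numpy 2.4.6, scipy 1.17.1 and matplotlib 3.10.9 were used. Other depths, gates, filters, scalings and call limits were tried.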

Additional observations from a re-analysis of the deposited data

Results flagged for a closer look

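The summed mitotic CPM of NK cells had log2 ratios to vehicle of opposite sign, 0.60 in p38i and -0.53 in p38KO, and the difference between them was not tested. In p38i the same sum was above vehicle in CD8 T cells (1.32), CD4 T cells (0.83), NK cells (0.60), monocytes (0.98) and DCs (2.32) and below it in macrophages (-0.80). In p38KO it was above vehicle in DCs (1.38) and neutrophils (0.51) and below it in NK cells (-0.53). Each of these opposite directions rests on 1 library per group and was not tested, and the values in DCs, monocytes and NK cells rest on few cells. In the CD8 T and CD4 T gates too, at least 50% of the mitotic counts lay in 5 or fewer cells of each library. The macrophage ratio was -0.25, not called, without the cells above the 99th percentile of UMIs, and the CD4 T ratio was 0.37, not called, under strict gates.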

How the results depend on the processing

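No paired analysis was possible because each group has 1 library, and for the same reason no library could be left out. Of the 16 main differences in the share of cells with 3 or more members, only that of all kept p38KO cells was called. The others thus had no call to lose. Of 162 alternative values for these differences 156 kept their call or stayed uncalled. So did 117 of 130 for summed replication ratios and 117 of 130 for summed mitotic ratios. An uncalled value that changed sign was counted among these only when it lay within the main counting interval. The size of a move without a change of sign was not limited. Of 98 numbers of members called 68 stayed within 1.5 times. No called ratio changed its direction under these alternatives. Leaving out the cell with the most member counts, counting members without the cells above the 99th percentile of UMIs, the second draw, the NK gate without mast cell markers and the 15-cell limit were chosen after the data were seen. At least 50% of the mitotic counts lay in 5 or fewer cells of each T and NK gate, a limit that the counting intervals do not cover. The cause of each change that follows was not tested.

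Without thinning, the difference in share from vehicle was -4.20 percentage points for p38i CD8 T cells (4.29 when thinned), -3.75 and -1.97 for p38i and p38KO monocytes and -2.25 for all p38i cells. Thinned to 3000 UMIs it was 4.90 for p38i CD4 T cells, and under strict gates -12.9 for p38i macrophages. Replication ratios of CD4 T cells were 0.19 (p38i) and 0.12 (p38KO) under strict gates, 0.11 (p38KO) as a mean over cells and -0.70 (p38i) without cells above the 99th percentile, which gave 0.25 in p38KO macrophages. At 10% mitochondrial counts the p38KO replication ratio of NK cells was 0.57. In DCs it was 0.60 (p38i) without the cell with the most member counts and 0.30 (p38KO) as a mean over cells. In p38KO neutrophils it was 0.42 under median-ratio scaling and as a mean over cells, 0.45 with no cell filter and under strict gates, and 0.47 at 10% mitochondrial counts.

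The p38i mitotic ratio was 0.37 in CD4 T cells under strict gates. In NK cells it was 0.0014 as a mean over cells and 0.23 without the cell with the most member counts. The p38KO mitotic ratio of NK cells was -0.44 under median-ratio scaling, -0.48 without mitochondrial and ribosomal genes, -0.13 at 10% mitochondrial counts and -0.39 without that cell. Without cells above the 99th percentile the mitotic ratio was -0.25 in p38i macrophages, 0.62 in p38KO macrophages and 0.29 in p38i monocytes. Without the top cell it was 0.29 in p38i monocytes and -0.052 in all p38i cells. It was 0.42 in p38KO neutrophils under median-ratio scaling. That scaling moved all genes by 0.12 in p38KO CD8 T cells, 0.11 in p38i neutrophils and 0.16 in all p38KO cells.

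The number of members called moved with the limit on size, from 5 to 1 in p38KO CD8 T cells, 10 to 5 in p38i and 4 to 2 in p38KO CD4 T cells, 30 to 15 in p38i macrophages and 7 to 1 in p38KO macrophages, at a log2 limit of 1. At 10 counts it was 5 in both NK comparisons, 1 in p38KO monocytes, 6 in p38KO DCs, and 2 and 4 in p38i and p38KO neutrophils. Under strict gates it was 3 in p38KO CD8 T cells, 4 and 2 in p38i and p38KO CD4 T cells, 1 in p38KO DCs and 0 in p38i neutrophils. Under median-ratio scaling it was 3 in p38KO CD8 T cells and 5 in p38KO NK cells, and with no cell filter 0 in p38i and 2 in p38KO neutrophils. Without the top cell it was 2 in p38KO CD8 T and CD4 T cells, 1 in p38i NK cells, 0 in p38i monocytes and 2 in p38i DCs. Without cells above the 99th percentile it was 3 in p38KO CD8 T cells, 11 in p38i macrophages, 13 in p38KO macrophages, 0 in p38i monocytes and 3 in p38i DCs.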
